A study of Macaca mulatta with 102 samples.

Results

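RNA from the cell-free part of milk was compared with RNA from biopsies of the mammary gland that makes it, in 6 lactating rhesus macaques (Macaca mulatta) called M1 to M6 here. Cell-free milk was taken on day 90 of lactation from each animal (6 samples) and each animal gave a single vacuum-assisted core biopsy (6 samples), so 12 of the 34 samples of the series entered the comparison, each as the average of 3 technical runs. The biopsies of M1, M2 and M5 were taken on day 90 and those of M3, M4 and M6 on day 30, so that biopsy and milk were of the same day in 3 animals only. All 6 were prime-aged multiparous dams nursing sons, and milk was collected under oxytocin after nursing had been prevented for some hours. A biopsy holds whole tissue with all of its cell types, and 1 female needed antibiotics for mastitis after it. The labels call the source of every sample macaque milk, biopsies included, and give the tissue type of the biopsies as Bx. The labels do not call any sample cell-free: 5 of the 6 milk samples are labelled FatS10 (spelled FatsS10 for M4) and that of M3 is labelled Skim10m. The study describes 6 cell-free milk samples of day 90, and these 6 are what remains of day 90 once the samples labelled Fat, Cells and Bx are set aside, so every value given for cell-free milk holds only if that reading is right.

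Milk is secreted by the luminal epithelial cells that line the alveoli of the lactating gland. Proteins and lactose leave these cells by fusion of secretory vesicles, while fat droplets are coated with perilipin 2 in the cytoplasm and bud off wrapped in plasma membrane, at times with a crescent of cytoplasm and its RNA. The biopsy holds these cells together with myoepithelium, stroma, vessels, fat cells and immune cells. Lactose is made in the Golgi from glucose and UDP-galactose by the enzyme B4GALT1 with alpha-lactalbumin (LALBA) as its partner, and a set of cytosolic enzymes supplies the UDP-galactose.

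Values were FPKM, fragments per kilobase of transcript scaled to the mapped reads, for 42701 Ensembl transcripts on the rheMac2 assembly. Depth relative to the median sample of the series was 0.918 to 1.28 in cell-free milk and 0.741 to 1.37 in biopsies, and 12231 to 13056 transcripts reached 1 FPKM in cell-free milk against 12018 to 14418 in biopsies. All 36 runs of these samples were closest to a run of their own sample. The study reports lower RNA integrity in milk fat than in mammary tissue, and its text gives no value for cell-free milk. Transcript names were at hand for 35 transcripts only, tied to names through the identifiers or mean levels that the study prints, because the tables used here do not pair these transcript identifiers with symbols. Lists of cell type markers and of other pathways could therefore not be described, beyond the secretory genes themselves. The names are those of the study, and whether each locus is the gene itself or a copy of it was not checked. Some loci are short, at 187 bases for MT1E, 268 for ATP5J2, 520 for TPT1 and 759 for FTH1. Where reads also match other loci, such levels rest on how the software placed them. The secretory markers CSN2, CSN3 and LALBA were abundant in every biopsy and every cell-free milk sample, the lowest value being 27654 FPKM of LALBA in the biopsy of M1. In bulk RNA of this kind, fewer cells of a type and less RNA per cell cannot be told apart.

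The biopsies fell into separate sets of libraries. Spearman correlations over all transcripts were 0.918 to 0.924 among the biopsies of M1, M2 and M3, 0.927 to 0.931 among those of M4, M5 and M6, and 0.901 to 0.912 between these sets. The cell-free milk samples of the same animals were 0.930 to 0.938 with one another. The sets match neither the day of the biopsy nor the sequencing pool: pool 2 held the milk and biopsies of M1 and M2, pool 3 the milk of M3 and M4 with the biopsies of M3, M4 and M5, and pool 4 the milk of M5 and M6 with the biopsy of M6. The sets were found in the data, their part in the results was not tested, and values within each set, an alternative chosen after seeing the data, stand beside the results. Grouping biopsies by their likeness lowers the spread within a set. Adjusted p-values within a set can therefore be too small, and they describe the set without testing it.

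**Figure D1:**
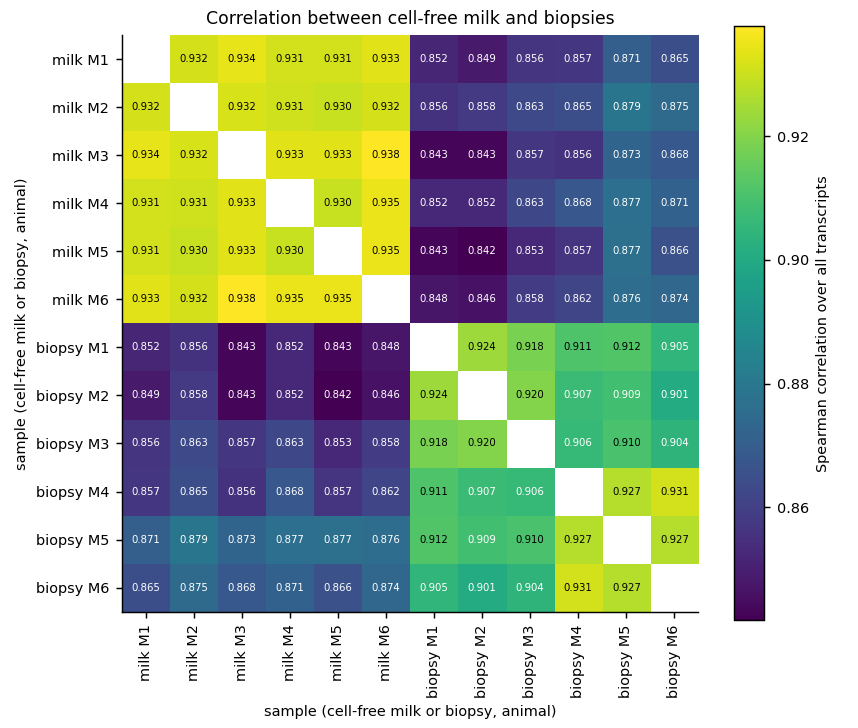
Spearman correlation over all transcripts between each pair of the 12 samples, as colour and number, with cell-free milk first and biopsies second on both axes. Pairs of cell-free milk samples lie between 0.930 and 0.938, pairs of biopsies between 0.901 and 0.931 with M1 to M3 and M4 to M6 as separate blocks, and milk with biopsy between 0.842 and 0.879.

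Large differences between cell-free milk and biopsy ran mostly downward in milk. Of 13700 transcripts with a mean of at least 1 FPKM, 221 were more than 3-fold higher in cell-free milk (1.61%) and 771 more than 3-fold lower (5.63%) at an adjusted p under 0.05 (limma on log2 of scaled FPKM plus 1, Benjamini-Hochberg). Without the fold limit, 3727 were higher (27.2%) and 2911 lower (21.2%), a balance that turned with scaling by the 75th percentile (2982 higher and 3335 lower) and with no filter on low FPKM (4250 and 6239). The scaled values of the groups did not overlap, all 6 milk samples being above all 6 biopsies, for 1937 transcripts (14.1%), and all below for 1779 (13%). The same direction in all 6 animals, by sign alone whatever the size, was seen for 205 of the 221 and 727 of the 771. The count of called transcripts was 1527 with M1, M2 and M3 only and 908 with M4, M5 and M6 only, and 954 without M3, whose milk carries the other label. With FPKM taken as deposited, the median of all transcripts moved from 0.06 to 0.27 on the log2 scale and 34.0% of called transcripts were higher, against 22.3% with scaling.

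The transcripts called lower had a median level of 6.82 FPKM in biopsies and 0.166 FPKM in cell-free milk. In samples that were not used to choose them the median was also low, at 0.166 FPKM for day 90 milk fat and 0.736 FPKM for day 90 milk cells. The 221 transcripts called higher had medians of 1.297 FPKM in biopsies and 9.67 FPKM in cell-free milk, beside 6.25 FPKM for day 90 milk fat and 9.38 FPKM for day 90 milk cells. Over all tested transcripts the medians in the 4 types ran from 4.26 to 4.75 FPKM. In all, 28 transcripts were listed at 0 in every cell-free milk sample and above 1 FPKM in every biopsy, and 0 transcripts showed the opposite pattern. With a limit of 0.1 FPKM in place of 0, these counts were 189 and 19.

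Calls were also counted by level and gene size. Among transcripts with a mean of 1000 FPKM or more, 5 of 34 were called higher, namely 3 of the copies of PLIN2 described below with short non-coding RNAs C and E, and 0 lower, whereas between 1 and 10 FPKM 151 were called higher and 622 lower of 9800. Called transcripts that were higher spanned a median of 30162 bases of genome, those that were lower 13266 bases and all tested transcripts 18175 bases. Overlap with another transcript, which leaves the split of reads to the authors' software, was seen in 77.4% of the higher, 65.9% of the lower and 64.7% of all tested transcripts. Chromosome X held 3.62% of the higher and 2.98% of the lower transcripts, against 3.80% of all tested.

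**Figure D2:**
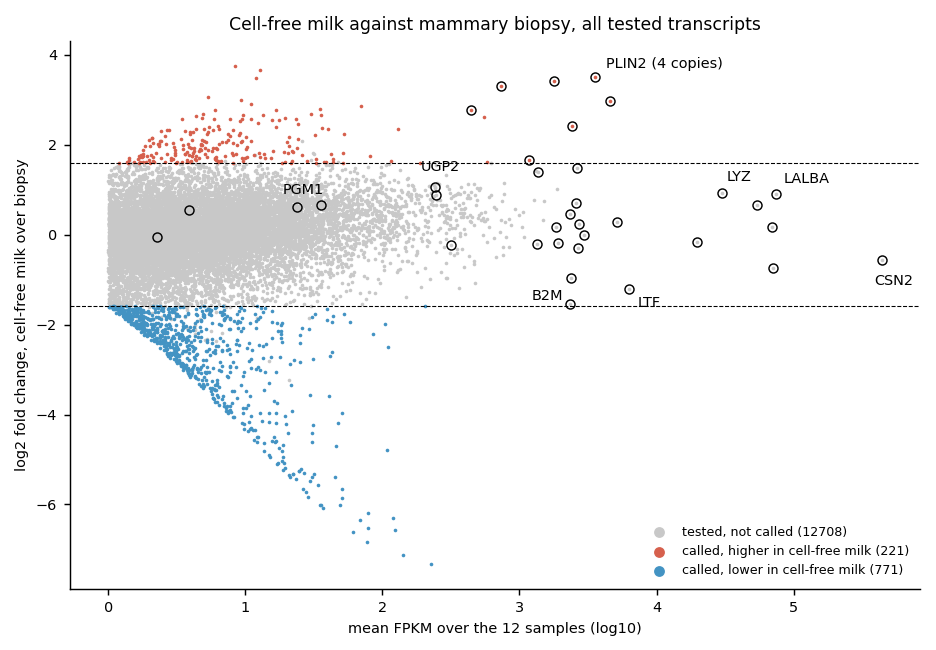
Each point is 1 of the 13700 tested transcripts, with mean FPKM over the 12 samples (log10) on the x axis and the fitted log2 fold change of cell-free milk over biopsy on the y axis. Dashed lines mark 3-fold, red points (221) were called higher and blue points (771) lower, and open circles are the 35 named transcripts, of which the PLIN2 copies lie highest.

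Perilipin 2, the protein that coats fat droplets before they are secreted, gave the largest difference among the named transcripts. Of the study's lists of abundant transcripts, PLIN2 is only on that of milk fat. Its rank among the named transcripts is therefore not independent evidence. The study's name PLIN2 falls on 4 loci, called copies here: chr15:57864460-57866618, chr14:67231622-67231997, chr15:58240050-58241364 and chr15:57855543-57859818. Whether they are copies or parts of the same gene was not checked, and the first and last lie close together. Where reads match several of these loci, the software decides how they are divided. FPKM are scaled to length, so a sum over parts of a gene can overstate its level. The sum is therefore given beside the values of each locus, and its size is uncertain. The summed level was 1309 FPKM at the lowest, 1629 at the median and 2355 at the highest in biopsies, and 11069, 21215 and 24567 FPKM in cell-free milk. All 6 milk samples were above all 6 biopsies, the lowest milk sample being that of M5. Mean sums were 19678 ± 5227 FPKM in cell-free milk and 1708 ± 371 FPKM in biopsies (SD, n = 6 each).

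Each PLIN2 copy was higher in cell-free milk by itself. The first copy went from 474.6 ± 87.3 to 6667 ± 1848 FPKM, a log2 fold change of 3.50 ± 0.18 (SE; limma adjusted p = 1.25e-08). The second copy, a locus of 376 bases, went from 865 ± 184 to 8340 ± 2160 FPKM (2.97 ± 0.19, adjusted p = 7.98e-08). The third copy went from 254 ± 83.1 to 3307 ± 932 FPKM (3.42 ± 0.19, adjusted p = 2.66e-08) and the fourth from 113 ± 32.1 to 1364 ± 330 FPKM (3.32 ± 0.18, adjusted p = 1.87e-08). All 4 stayed over 3-fold higher in each alternative run on single transcripts, and their median log2 fold change was 3.75 in M1, M2 and M3 and 2.99 in M4, M5 and M6.

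**Figure D3:**
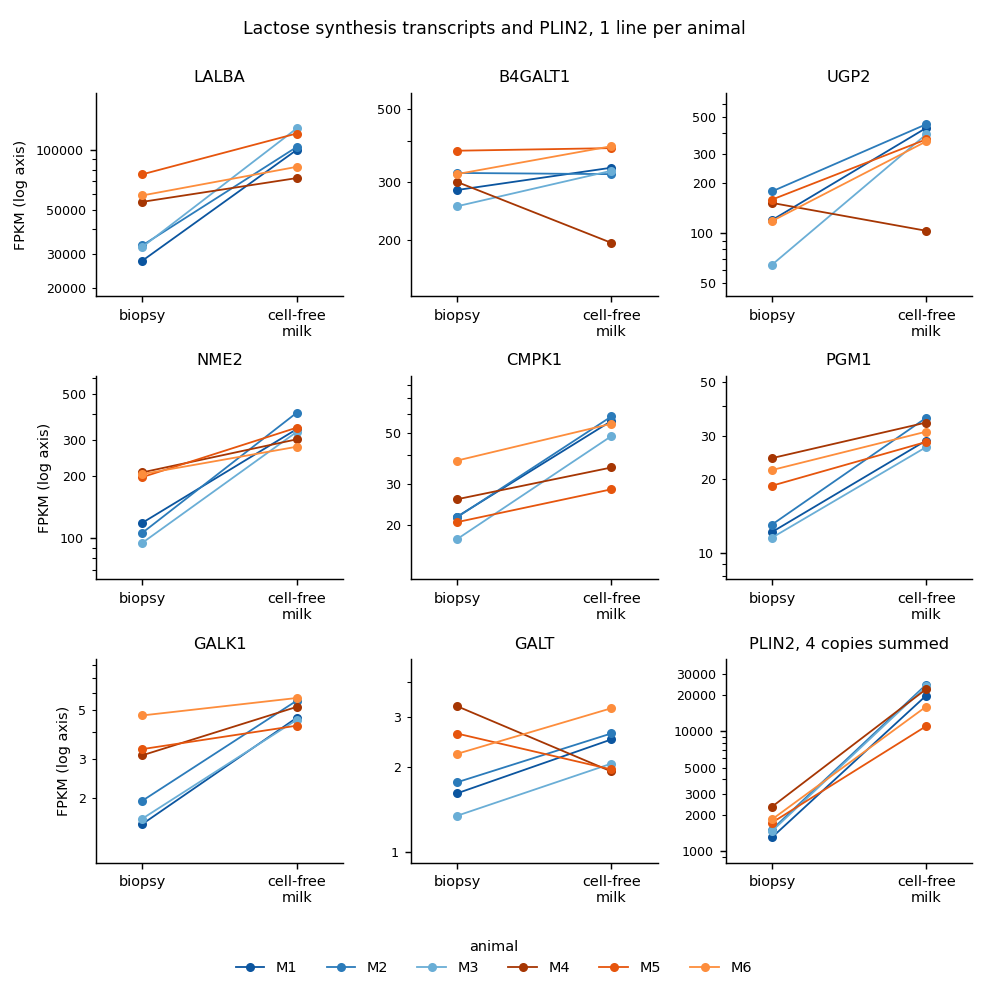
FPKM on a log axis in the biopsy and the cell-free milk of each animal, with 1 coloured line per animal, for the 8 lactose synthesis transcripts and the PLIN2 sum. Blue lines are M1 to M3 and orange to brown lines M4 to M6. For PGM1, GALK1 and NME2 the blue biopsies start lower and the milk values lie close together, and M4 is the line that falls for UGP2.

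Lactose synthesis transcripts were higher in cell-free milk for 6 of the 8 named members and lower for 0 at an adjusted p under 0.05, where 27.2% of all transcripts were higher. None was over 3-fold. Their median log2 fold change was 0.64, beside 0.06 over all transcripts. The study took the pathway from earlier work, but it printed identifiers only for members that differ between milk fat and these same biopsies, so the count is not independent evidence of a direction. The count of members higher was 6 in M1, M2 and M3, where 28.4% of all transcripts were higher, and 2 in M4, M5 and M6, where 13.3% were. Except for LALBA, each of these transcripts overlaps another transcript on the genome, so that its level rests on how the software divided reads.

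Of the subunits of lactose synthase, LALBA passed the test and B4GALT1 did not, and the difference between them was not tested. LALBA, the regulatory subunit (chr11:45692914-45695265), had 27654 FPKM at the lowest, 43972 at the median and 75671 at the highest in biopsies, and 72374, 102244 and 129124 FPKM in cell-free milk. Every animal was higher in milk, although the groups overlapped because the milk of M4 lay below the biopsy of M5. The log2 fold change was 0.91 ± 0.23 (SE, limma adjusted p = 0.00575), 0.49 in M4, M5 and M6 alone (adjusted p = 0.317), and the call was also lost when transcripts of low FPKM were not filtered out (adjusted p = 0.884). B4GALT1, the catalytic subunit (chr15:44063193-44118812), had 254 to 373 FPKM in biopsies and 197 to 385 FPKM in cell-free milk, with a log2 fold change of -0.23 ± 0.19 (adjusted p = 0.356). Its lowest value in milk was that of M4, and its estimate was 0.04 with FPKM as deposited.

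Several enzymes that supply nucleotides and sugars for UDP-galactose were higher, none by more than 3-fold. NME2, a nucleoside diphosphate kinase (chr16:35402045-35407009), had 95.1 to 209 FPKM in biopsies and 278 to 407 FPKM in cell-free milk, with no overlap (log2 fold change 0.89 ± 0.14, limma adjusted p = 0.000261). PGM1, which interconverts glucose 1-phosphate and glucose 6-phosphate (chr1:66370644-66436886), had 11.5 to 24.4 FPKM against 27.1 to 35.8 FPKM, again with no overlap (0.62 ± 0.09, adjusted p = 0.000149). The values of these enzymes in cell-free milk varied little among animals, with SDs of 43.7 and 3.44 FPKM. GALK1, the galactokinase (chr16:71071239-71078734), was low in both, at 1.53 to 4.75 FPKM in biopsies and 4.26 to 5.69 FPKM in milk (0.54 ± 0.12, adjusted p = 0.00349, and 0.154 in M4, M5 and M6 alone). CMPK1, a kinase of UMP and CMP (chr1:50153990-50198871), had 17.5 to 37.9 FPKM and 28.6 to 58.6 FPKM (0.66 ± 0.18, adjusted p = 0.00822, and 0.247 in M4, M5 and M6 alone).

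UGP2 was higher in 5 of 6 animals, with M4 as the exception. UGP2, which makes UDP-glucose (chr13:64029084-64089013), had 64.7 to 179 FPKM in biopsies, 357 to 453 FPKM in the cell-free milk of 5 animals and 104 FPKM in that of M4. The same animal was lowest for UGP2 in its other day 90 milk fractions, with 62.8 FPKM among milk cells and 292 FPKM among milk fat samples, while its biopsy, of day 30, was not the lowest biopsy. The UGP2 log2 fold change was 1.06 ± 0.36 (adjusted p = 0.0273), and the call was lost without any one of M1, M3, M5 or M6 (adjusted p from 0.0593 to 0.116), with no filter on low FPKM (0.0535) and in M4, M5 and M6 alone (0.361). GALT, the uridylyltransferase of the galactose pathway (chr15:42873307-42877251), was low in both groups, at 1.34 to 3.28 FPKM in biopsies and 1.93 to 3.22 FPKM in milk (-0.05 ± 0.11, adjusted p = 0.729).

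Most of the abundant milk protein transcripts did not pass the test. Of 9 named, 2 were higher (LALBA and LYZ), 1 was lower (LTF) and 6 did not pass the adjusted p, where 27.2% of all transcripts were higher and 21.2% lower. Their median log2 fold change was 0.16, beside 0.06 over all transcripts. In M1, M2 and M3 alone 3 were higher and 3 lower, where 28.4% and 24.7% of all transcripts were. In M4, M5 and M6 alone 0 were higher and 0 lower, where 13.3% and 13.6% were. As these sets were chosen from the same data, adjusted p-values within a set can be too small. Beta-casein, the main protein of the milk micelle, led both groups through its first transcript (CSN2, chr5:59676470-59680187), with 336334 to 633745 FPKM in biopsies and 368058 to 461314 FPKM in cell-free milk. Only the biopsies of M1, M2 and M3 were above every milk sample, and the log2 fold change was -0.57 ± 0.28 in all animals (limma adjusted p = 0.11), -1.15 in M1, M2 and M3 (adjusted p = 0.00153) and 0.05 in M4, M5 and M6. Kappa-casein, which stabilises the micelle (CSN3, chr5:59423490-59435314), had 46281 to 124911 FPKM in biopsies and 50984 to 70621 FPKM in cell-free milk (-0.75 ± 0.34, adjusted p = 0.0905), and -1.40 in M1, M2 and M3 (adjusted p = 0.000374).

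The second CSN2 transcript overlaps the first on the genome (chr5:59676454-59681817), so the division of reads between them was an estimate of the authors' software. It was at 14768 to 22513 FPKM in the biopsies of M1, M2 and M3, 60511 to 68840 FPKM in those of M4, M5 and M6 and 47405 to 76364 FPKM in cell-free milk, and was higher in the milk of all 6 animals. Its log2 fold change of 0.66 ± 0.32 did not pass without the animal as a block (limma adjusted p = 0.11) and passed with the block (adjusted p = 0.0345). It made up 2.65% to 3.52% of both CSN2 transcripts together in the biopsies of M1 to M3, 14.1% to 15.2% in those of M4 to M6 and 11.4% to 17.1% in cell-free milk. This ratio, and that of LALBA to the CSN2 transcripts, were chosen after the values were seen. LALBA amounted to 4.33% to 15.5% of both CSN2 transcripts together in biopsies and 13.5% to 28.2% in cell-free milk, and was higher in the milk of 6 of 6 animals.

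Among the whey proteins, lysozyme was higher and lactoferrin lower. LYZ, an antibacterial enzyme made by secretory epithelium and by phagocytes (chr11:66342374-66347986), had 11244, 16205 and 35396 FPKM at the lowest, median and highest in biopsies and 23885, 42213 and 56722 FPKM in cell-free milk, and was higher in the milk of all 6 animals (0.92 ± 0.29, limma adjusted p = 0.0188). It lost the call without M1 (adjusted p = 0.0552), without M3 (0.0828), in M4, M5 and M6 alone (0.381) and with no filter on low FPKM (0.613). LTF, the iron-binding lactoferrin of epithelium and neutrophils (chr2:90062066-90090651), had 5719, 7409 and 12357 FPKM in biopsies and 2849, 3816 and 8851 FPKM in cell-free milk, and was lower in the milk of all 6 animals (-1.20 ± 0.28, adjusted p = 0.00367, and 0.123 in M4, M5 and M6 alone). The milk of M5 held the high value, and the biopsy of M5 was the highest biopsy. Beta-lactoglobulin (LGB2, chr15:2731645-2735903), a lipid-binding whey protein, was at 59968 ± 19403 FPKM in biopsies and 78293 ± 14169 FPKM in cell-free milk (SD, n = 6 each). Its log2 fold change was 0.16 ± 0.19 (adjusted p = 0.499). GLYCAM1, a mucin-like protein of milk (chr11:51725784-51727934), was at 2181 ± 301 and 3258 ± 1169 FPKM, and SPP1, or osteopontin (chr5:80941204-80948955), at 1817.3 ± 591 and 1992 ± 933 FPKM. Neither passed the adjusted p (0.502 and 0.659).

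Of 9 other abundant transcripts, 1 was higher, 1 was lower and 7 did not pass, where 27.2% of all transcripts were higher and 21.2% lower. B2M, the light chain of MHC class I that most nucleated cells express (chr7:23126191-23130703), had 2320, 3046 and 3397 FPKM at the lowest, median and highest in biopsies and 1668, 1830 and 2043 FPKM in cell-free milk. The groups did not overlap, and the log2 fold change was -0.97 ± 0.20 (limma adjusted p = 0.00157). In M4, M5 and M6 alone it was -0.65 (adjusted p = 0.0507). FTH1, the heavy chain of the iron store ferritin (chrX:123293385-123294143), had 1281 to 2201 FPKM in biopsies and 2466 to 3653 FPKM in milk, again with no overlap in FPKM (0.46 ± 0.16, adjusted p = 0.0264). That call was lost with scaling by the 75th percentile (adjusted p = 0.0702), with no filter on low FPKM (0.103), in M1, M2 and M3 alone (0.182) and without M1, M4 or M5 (0.0565 to 0.0731).

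For several of the others the estimates had opposite signs in the sets of animals. FTL (chr19:55247878-55248075) had 2724 ± 769 FPKM in biopsies and 3237 ± 801 FPKM in milk. FABP3, a cytosolic carrier of fatty acids (chr1:34144226-34145760), had 19800 ± 10693 and 19416 ± 4336 FPKM, but its log2 fold change was -0.95 in M1, M2 and M3 (limma adjusted p = 0.00799) and 0.65 in M4, M5 and M6 (adjusted p = 0.193). The difference between these sets was not tested, since they were found in the data, and for the same reason adjusted p-values within a set can be too small. TPT1, a growth-related cytosolic protein (chr1:175086475-175086994), had 2739 ± 1022 and 2566 ± 339 FPKM, with -0.88 in M1, M2 and M3 (adjusted p = 0.00122) and 0.33 in M4, M5 and M6. MT1E, a metal-binding metallothionein (chr14:120913971-120914157), had 1871 ± 1173 and 3325 ± 835 FPKM (0.71 ± 0.33, adjusted p = 0.0954, and 0.026 with FPKM as deposited). CD24, a surface glycoprotein of luminal cells (chr4:103000320-103003296), had 4272 ± 1421 and 6042 ± 1005 FPKM and was higher in the milk of all 6 animals without passing the adjusted p (0.351). SERF2 (chr7:22185782-22186583) had 1571 ± 505 and 2106 ± 527 FPKM, and ATP5J2, a subunit of the mitochondrial ATP synthase (chr12:27428622-27428889), 1372 ± 653 and 1309 ± 267 FPKM, with adjusted p of 0.656 and 0.671. In M1, M2 and M3 alone ATP5J2 had a log2 fold change of -0.94 (adjusted p = 0.00118), and in M4, M5 and M6 alone SERF2 had 0.69 (adjusted p = 0.0269).

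**Figure D4:**
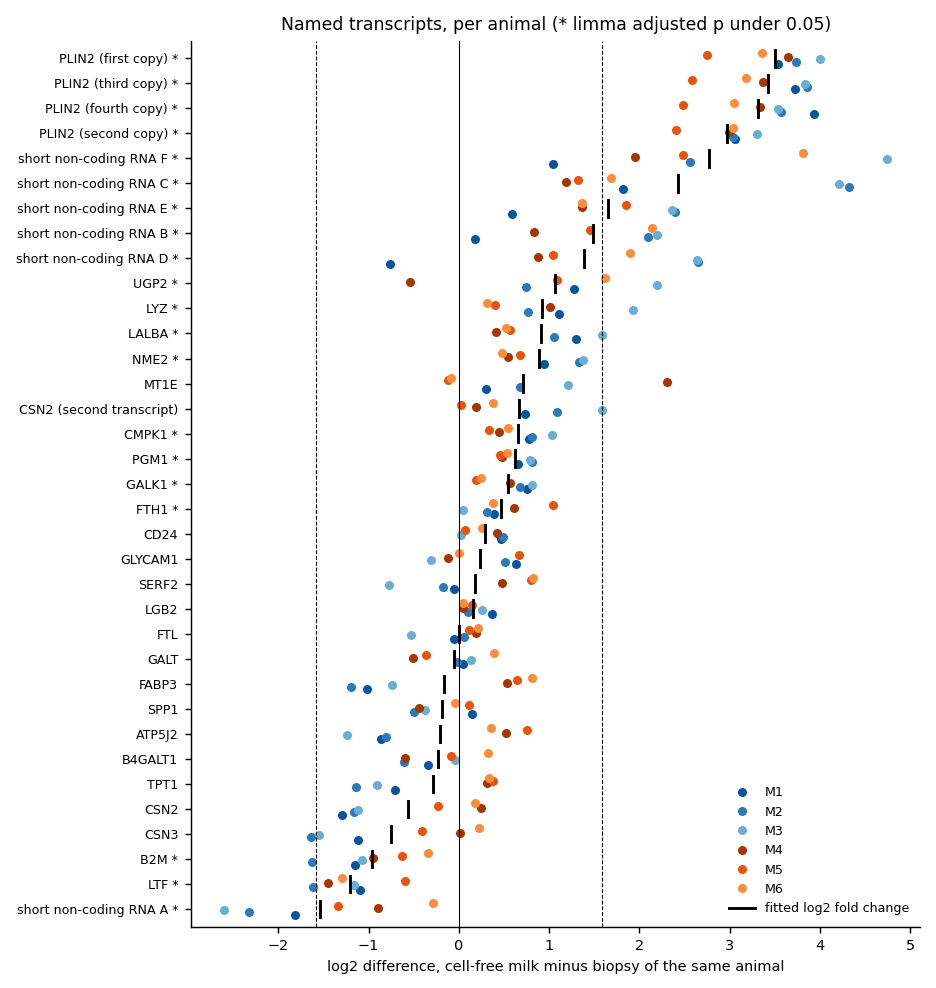
Difference between cell-free milk and biopsy of the same animal in log2(scaled FPKM + 1) for the 35 named transcripts, with 1 point per animal and a black bar at the fitted log2 fold change. Dashed lines mark 3-fold and stars a limma adjusted p under 0.05. The 4 PLIN2 copies lie right of 3-fold in every animal, and for FABP3, ATP5J2 and TPT1 the blue points (M1 to M3) and the orange points (M4 to M6) lie on opposite sides of 0.

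The 6 named short non-coding RNAs, of 75 to 94 bases, were mostly higher in cell-free milk. They come from the study's lists of abundant transcripts. RNAs B to F are on that of milk fat, and RNA A is only on those of biopsies and milk cells. Counts of direction among them are therefore not independent evidence. The study searched its abundant non-coding RNAs by BLAST and reports homology to human ribosomal RNAs. They are named by letter here, for want of gene names. Their match to transcripts by mean level was looser, with differences of 3.81% to 24.2%, against at most 1.52% for the coding transcripts. Of the 6, 5 were higher, where 27.2% of all transcripts were, and 1 was lower. Those over 3-fold higher numbered 3 (1.61% of all transcripts), 5 without M1 or with FPKM as deposited, and 2 without M2, without M3 or with scaling by the 75th percentile. RNA C (chrX:94021675-94021766) had 224, 621 and 1412 FPKM at the lowest, median and highest in biopsies and 1580, 4117 and 7033 FPKM in cell-free milk, with no overlap in FPKM (2.42 ± 0.49, limma adjusted p = 0.00147). RNA F (chr19:22512532-22512610), the loosest match, had 24.99 to 199.8 FPKM and 257 to 1216 FPKM (2.77 ± 0.56, adjusted p = 0.00151). RNA E (chr20:23618907-23618981) had 299 to 734 FPKM and 934 to 3175 FPKM (1.65 ± 0.24, adjusted p = 0.000122).

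The other RNAs of this class differed by less. RNA B (chr19:22999704-22999795) had 775 to 1534 FPKM in biopsies and 2228 to 6554 FPKM in milk (1.48 ± 0.26, limma adjusted p = 0.000484). RNA D (chr20:30452380-30452473) overlapped between the groups because the biopsy of M1, at 1193 FPKM, lay above the milk of M1 and M4 (1.39 ± 0.42, adjusted p = 0.0153). That call was lost without M2, M3 or M6 (adjusted p from 0.0515 to 0.0719), in M1, M2 and M3 alone (0.0897) and in a fit of all sample types (0.0997). RNA A (chr2:123178536-123178615) was the exception, at 2111 to 5166 FPKM in biopsies and 458 to 1982 FPKM in milk, and was lower in the milk of all 6 animals (-1.54 ± 0.34, adjusted p = 0.0025). Loci this short are smaller than the reads of 100 bases, and FPKM divide by an effective length, so the size of these values depends on how the software treated short transcripts. Of 129 tested transcripts with loci under 100 bases, 5 were called higher and 5 lower, with a median log2 fold change of -0.66.

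As shares of all FPKM in a sample, milk protein transcripts took less of cell-free milk and PLIN2 more. The 9 milk protein transcripts held 74.7% ± 4.44 of the biopsies and 68.2% ± 2.57 of cell-free milk (SD, n = 6 each) and were lower in the milk of 6 of 6 animals. The mean difference was -6.58 percentage points (exact two-sided sign-flip permutation test, p = 0.0313, adjusted p = 0.0313, the smallest this design allows). It was -11.0 points in M1, M2 and M3 and -2.19 points in M4, M5 and M6. The casein transcripts alone fell by more, from 60.8% ± 9.16 of the biopsies to 47.1% ± 3.89 of cell-free milk. Their mean difference was -13.7 points, lower in 6 of 6 animals. The other milk protein transcripts together therefore held a larger mean share of cell-free milk than of biopsies. The PLIN2 loci together held 0.172% ± 0.0478 of the biopsies and 1.80% ± 0.463 of cell-free milk, higher in 6 of 6 animals (p = 0.0313 and adjusted p = 0.0313 by the same exact test). The size of this share is as uncertain as the sum over these loci. All 2057 transcripts with loci under 100 bases together held 0.765% ± 0.179 and 1.46% ± 0.529, again higher in 6 of 6 animals (exact p = 0.0313, adjusted p = 0.0313). Without the 6 named short RNAs, the other 2051 held 0.123% ± 0.0397 of the biopsies and 0.153% ± 0.0609 of cell-free milk, and were higher in the milk of 4 of 6 animals. The lowest share of all these loci among biopsies was 0.409%, in M3.

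The 20 most abundant transcripts held most of the RNA in both groups, and 15 of them were the same. They made up 79.0% ± 4.90 of the biopsies and 74.1% ± 2.12 of cell-free milk, a difference of -4.97 points that was negative in 4 of 6 animals (p = 0.125 by the same exact test). CSN2 ranked first in both. CSN3 ranked 2 in biopsies and 5 in cell-free milk, and LALBA 4 and 2. The second PLIN2 copy ranked 8 in cell-free milk and 27 in biopsies, and the first copy 9 and 56. B2M, by contrast, ranked 11 in biopsies and 27 in cell-free milk.

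The transcripts with the widest differences that held in all 6 animals carry no name in the tables used here. The largest rise was at chr8:134557301-134584401 (ENSMMUT00000038856), at 13.4 to 21.6 FPKM in cell-free milk and at most 0.335 FPKM in any biopsy. Its levels on day 90 were 7.16 ± 5.02 FPKM for milk fat and 19.5 ± 5.34 FPKM for milk cells (SD, n = 6 each). Next came chr1:185383238-185392409 (ENSMMUT00000019492), which was at 0.000115 FPKM in the milk of M2, 6.97 in that of M5 and 12.9 to 58.2 in the others. It was below 0.0001 in every biopsy and in every sample of day 90 milk fat. In M2 both values were near 0, so only the sign of the difference held there. Milk cells of day 90 held 37.6 ± 19.9 FPKM of it, beside a mean of 25.4 FPKM in cell-free milk. Both loci overlap other transcripts, so the division of reads between transcripts bears on them.

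On the other side, chr14:8929586-8929753 (ENSMMUT00000026449), a locus of 168 bases, had 207 to 706 FPKM in biopsies and 0 to 9.74 FPKM in cell-free milk. Milk cells of day 90 held 121 ± 79.97 FPKM of it and milk fat 4.12 ± 3.29 FPKM. The second, chr6:148100558-148112881 (ENSMMUT00000002604), had 189.8 to 364 FPKM in biopsies, 0.230 to 6.15 FPKM in cell-free milk. For day 90 milk fat and milk cells its means were 2.73 ± 4.62 and 6.76 ± 9.36 FPKM. Their log2 fold changes were -7.32 ± 0.49 and -7.12 ± 0.37 (limma adjusted p = 1.31e-07 and 1.04e-08). No other transcript overlaps either locus.

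Milk and biopsy of the same day were compared in M1, M2 and M5. There 252 transcripts were more than 3-fold higher (1.87%) and 748 lower (5.54%) of 13491 tested, with 2094 higher (15.5%) and 1764 lower (13.1%) without the fold limit. The count rests on M5 and on the pair of M1 and M2: it was 1610 without M5, 345 without M1 and 385 without M2. With FPKM as deposited, 49.8% of the called were higher, against 25.2% with scaling. In M3, M4 and M6, whose biopsies were of day 30, 200 were more than 3-fold higher (1.44%) and 708 lower (5.09%) of 13919, and 1096 were higher (7.87%) and 1453 lower (10.4%) without the fold limit. These sets of animals share no sample, and 659 transcripts were called in both, which is 65.9% of the first list and 72.6% of the second. All 659 had the same direction, 113 of them higher and 546 lower.

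All 4 PLIN2 copies were over 3-fold higher in each set, with median log2 fold changes of 3.37 for the day 90 biopsies and 3.39 for the day 30 biopsies. Of the lactose synthesis transcripts, 3 of 8 were higher in the animals with a day 90 biopsy (UGP2, PGM1 and NME2), where 15.5% of all transcripts were, and 1 of 8 in the others (PGM1), where 7.87% were, while the medians were 0.67 and 0.65. With the animal as a block CMPK1 also passed for day 90 biopsies (limma adjusted p = 0.0347), PGM1 no longer passed for day 30 biopsies (0.0846), and the transcripts higher with day 30 biopsies fell from 1096 to 639. The test of the difference between these sets of 3 animals called 0 transcripts at an adjusted p under 0.05 (limma, smallest adjusted p = 0.276), with 455 of 13700 at an unadjusted p under 0.05. On simulated data the same test recovered 58% of transcripts changed 8-fold, all of them with means of at least 5 FPKM. Recovery of the many tested transcripts below that level was not measured, and the simulated noise was independent between samples, without the sets of biopsies.

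Of the 9 milk protein transcripts, 2 were higher and 0 lower in the animals with a day 90 biopsy, and 0 were higher and 1 lower in those with a day 30 biopsy. GLYCAM1 (0.63, limma adjusted p = 0.0223) and LYZ (0.79, 0.0388) passed for day 90 biopsies, whereas LALBA (1.004, 0.062) and LTF (-1.07, 0.155) did not. With the animal as a block LALBA (0.0329) and LTF (0.0382) passed there too. For day 30 biopsies LTF passed (-1.29, limma adjusted p = 0.0132), and LYZ (1.09, 0.194), LALBA (0.85, 0.13) and GLYCAM1 (-0.14, 0.831) did not. For short non-coding RNAs the block took away the calls of RNA B with day 90 biopsies (limma adjusted p = 0.0747) and of RNA C with day 30 biopsies (0.0824), and added that of RNA F with day 90 biopsies (0.0225).

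Cell-free milk resembled the biopsy of its own animal slightly more than those of other animals. The Spearman correlation was 0.864 on average with the own biopsy and 0.859 with the others (exact permutation of the 6 animals, one-sided p = 0.00139, the smallest of 720 pairings). Milk and biopsy of an animal shared a sequencing pool in 5 of 6 cases. Between animals of 1 milk pool the own biopsy was closer on average by 0.00272 for M1 and M2, 0.00325 for M3 and M4 and 0.00457 for M5 and M6. The milk of M6, however, was closer to the biopsy of M5 (0.8762), which was in another pool, than to its own (0.8736). The own animal's milk was the closest of the 6 for only 2 of the biopsies, and the biopsy of M5 was closer on average to all milk samples (0.876) than that of M2 (0.848).

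**Figure D5:**
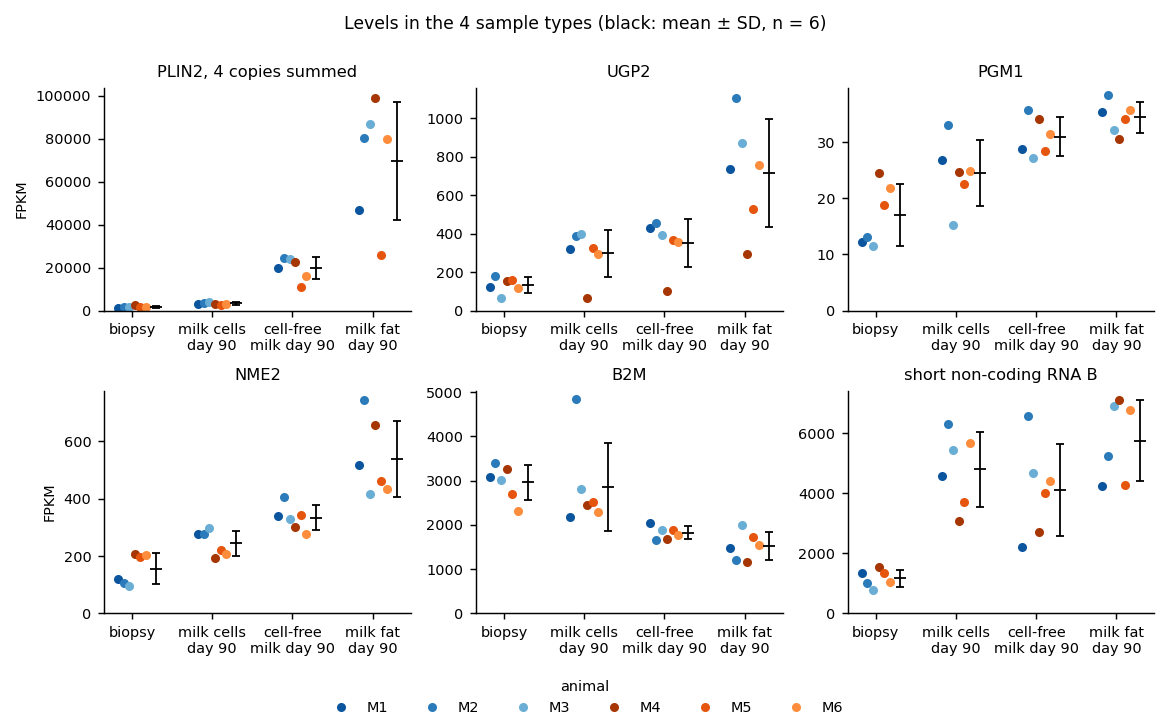
FPKM in biopsies and in the milk cells, cell-free milk and milk fat of day 90, with 1 coloured point per animal and the mean ± SD in black (n = 6 each). The means of PLIN2, UGP2, PGM1 and NME2 are highest in milk fat and lowest in biopsies, with cell-free milk between milk cells and milk fat, and the means of B2M are lower in cell-free milk and milk fat than in biopsies and milk cells. For short non-coding RNA B every milk sample lies above every biopsy.

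Against the other day 90 milk fractions, the mean of cell-free milk stood between those of milk cells and milk fat for several transcripts. For PLIN2, UGP2, PGM1, GALK1, CMPK1 and NME2 milk fat was the highest of these fractions. For B4GALT1 the order was reversed, with 364 FPKM in milk cells, 322 in cell-free milk and 231 in milk fat. GALT was not between them (2.38 FPKM, against 2.91 in milk cells and 4.42 in milk fat). The PLIN2 sum was 3294 ± 577 FPKM in milk cells, 19678 ± 5227 in cell-free milk and 69740 ± 27466 in milk fat (SD, n = 6 each). Each copy was lower in cell-free milk than in milk fat (log2 fold changes from -2.11 to -1.65, limma adjusted p from 0.00323 to 0.00592) and higher than in milk cells (2.34 to 2.77, adjusted p from 0.00027 to 0.000575). Against milk fat, 13 of the 35 named transcripts were lower and 0 higher, where 17.2% of 12730 tested transcripts were lower and 13.3% higher. Besides PLIN2 these were UGP2, PGM1, GALT, GALK1 and NME2 of lactose synthesis, and FABP3, TPT1, SERF2 and ATP5J2. UGP2 had 351 ± 127 FPKM in cell-free milk and 715 ± 280.3 in milk fat. With the animal as a block 16 named transcripts passed, MT1E (0.79) and B4GALT1 (0.42) being higher and RNA C (-0.78) lower in addition (limma adjusted p from 0.00802 to 0.0469), where 21.5% of all transcripts were higher and 25.6% lower.

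Against milk cells, the PLIN2 copies were the 4 named transcripts that passed, all higher, where 0.479% of 13371 tested transcripts were higher and 0.86% lower. With the animal as a block, 10 named transcripts passed, the others being MT1E (0.65), FTH1 (0.49), GALK1 (0.41), PGM1 (0.33) and CMPK1 (0.33), which were higher, and RNA A (-1.28), which was lower, with limma adjusted p from 0.0267 to 0.0427. In that fit 699 of all transcripts were higher (5.23%) and 477 lower (3.57%). These comparisons share the cell-free milk samples with that against biopsies.

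In rank order over all transcripts, cell-free milk lay between the other milk fractions in its likeness to tissue. The mean Spearman correlation with the biopsies of other animals was 0.854 ± 0.00338 for milk fat, 0.859 ± 0.00537 for cell-free milk and 0.871 ± 0.00451 for milk cells (SD, n = 6 each). The value for cell-free milk exceeded that for milk fat by 0.00506, in every animal (exact sign-flip test, p = 0.0313, adjusted p = 0.0313), and below milk cells in 6 of 6, by -0.0116 (exact p = 0.0313, adjusted p = 0.0313). With transcripts of at least 1 FPKM only, neither difference passed (exact p = 0.156 and 0.0938).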

How the data were processed

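RNA of 6 cell-free milk samples and 6 mammary biopsies was read from the FPKM that the authors deposited for 34 samples in 3 technical runs each, after trimming of 100-base reads, mapping to rheMac2 with TopHat and estimation per Ensembl transcript with Cufflinks. FPKM carry no read counts, so no counting interval was computed, and depth was estimated relative to the median sample from the spacing of low values. A further 6 columns match no described sample and were not used. Runs were averaged. Levels and shares are FPKM as deposited.

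For tests, a median-of-ratios factor was divided out of each sample's FPKM, 1 was added, and log2 values of transcripts with a mean of at least 1 FPKM were fitted with limma 3.58.1 (R 4.3.3, trend, two-sided, Benjamini-Hochberg). The threshold was an adjusted p of 0.05, with a fold limit of 3 where stated. Fold changes are on the log2(scaled FPKM + 1) scale, which understates those of low transcripts. The animals pair the samples: deviations from group means correlated by 0.114 to 0.369 within all 6 animals. The main fits left this pairing out, and the animal as a block was an alternative. With the block, 4093 transcripts were higher (29.9%) and 3169 lower (23.1%) in cell-free milk than in biopsies without the fold limit. In simulated data, 98.5% of 200 transcripts changed 8-fold were called with 6 against 6 among 14078, and 2 unchanged ones, and 86% with 3 against 3. The changed transcripts were drawn from those with means of at least 5 FPKM, so these rates do not cover lower ones. The simulated noise was independent between samples, without pairing by animal or sets of biopsies. The rates therefore check the procedure and do not give the error rate of the real data.

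Members and lists were chosen with earlier results of these data known. Named were the transcripts of every gene that the study names with an identifier (7) or with means that point to 1 transcript (28). Added to them were the 2 most changed in each direction that had the same sign of difference in 6 of 6 animals. Gene lists that need other symbols were left out, and 1 transcript of the lactose synthesis list is not reported here. Two-sided sign-flip tests and a one-sided permutation of animals were exact and were run in Python 3.11.15 with numpy 2.4.6 and scipy 1.17.1.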

Additional observations from a re-analysis of the deposited data

Results flagged for a closer look

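Some values stood far from the other 5 of their group. A gap from 1 sample to the nearest other above 0.625 of the group's range was found in 8 of 86 sets of 6 values (9.30%). About 5% holds for independent sets of normal values. These sets come from the same samples and need not be normal, so no excess over chance can be read from the count. The cell-free milk of M4 was high for CSN2 (461314 FPKM) and low for B4GALT1 (197 FPKM) and UGP2 (104 FPKM), and it is the sample whose label is spelled FatsS10. The cell-free milk of M5 was high for LTF (8851 FPKM) and LGB2 (105016 FPKM). The other cases were biopsies: the second PLIN2 copy in M4 (1220 FPKM), short non-coding RNA D in M1 (1193 FPKM) and the share of loci under 100 bases in M3 (0.409%).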

How the results depend on the processing

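The depth of single samples limits transcripts near 1 FPKM most, and the pseudocount sets how many of them pass 3-fold. The count of 992 called transcripts became 1874 with a pseudocount of 0.1, 106 with 10, 407 with a mean of at least 5 FPKM (6533 transcripts tested), 652 when overlapping transcripts were summed (10220 tested) and 1527 in M1, M2 and M3 only, an alternative chosen after seeing the data. For day 90 biopsies the same settings gave 1642, 118, 424 and 655 in place of 1000, and for day 30 biopsies 1449, 99 and 327 in place of 908. Leaving out each animal gave 918 to 1095, 345 to 1610 and 608 to 1047 calls, 0 to 1 for dependence on the day of the biopsy (1 without M1), and 17 to 19 named transcripts past the adjusted p against biopsies, 10 to 13 against milk fat and 4 to 6 against milk cells. With the animal as a replicate block the counts were 999, 1064 and 882 transcripts and 21, 16 and 10 named transcripts, and the calls of named transcripts that the block changed are given beside their results. Without each animal the share differences ran from -6.22 to -3.76 points for the top 20, -7.75 to -5.47 for milk proteins, 1.54 to 1.79 for PLIN2 and 0.545 to 0.826 for short loci, where 5 animals cannot pass an exact test. The correlation differences ran from 0.00429 to 0.00535 for the own animal, 0.00427 to 0.00601 against milk fat and -0.0126 to -0.0104 against milk cells. With at least 1 FPKM they were 0.0167 against milk fat and -0.0127 against milk cells, and -0.00362 against milk cells as Pearson correlation of log2 values, none of them past the exact test. Of 593 values of named transcripts under alternatives, 536 kept direction and side of the threshold, 27 lost and 11 gained a call, and 19 changed sign, none of them past the adjusted p. These were, in M4, M5 and M6 only, CSN2 (0.051), FABP3 (0.65), TPT1 (0.33), FTL (0.16) and ATP5J2 (0.53). In M1, M2 and M3 only they were SERF2 (-0.30) and GALT (0.077). With FPKM as deposited they were FABP3 (0.11), FTL (0.27), SPP1 (0.087), ATP5J2 (0.057), B4GALT1 (0.044) and GALT (0.12). With 1 animal left out, FABP3 ran from -0.35 (without M6) to 0.041 and was above 0 without M1 or M2, FTL ran from -0.038 to 0.10 and was above 0 without M1 or M3, and GALT ran from -0.13 to 0.045 and was above 0 without M4 or M5. The causes were not tested.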
